A study of Triticum turgidum subsp. durum with 24 samples.

Results

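The comparison described here concerns low soil water added to heat in leaves of the durum wheat cultivar Ofanto. It sets the 3 arrays of Ofanto labelled as mixed treatment (combined stress, CS) against the 3 arrays of Ofanto labelled as heat (heat stress, HS), 6 of the 24 arrays of the series. CS plants stood at 12.5% soil water content and HS plants at 28%, and both reached a day temperature of 40 °C. The other groups used below are Ofanto controls (Ctrl, 28% soil water, 19 °C), Ofanto under drought alone (DS, 12.5% soil water, 19 °C), and the HS and CS plants of a second cultivar, Cappelli, grown under the same regimes. Each group has 3 arrays, described by the study as biological triplicates, and no source used here gives the number of plants per RNA sample. Leaf temperature was not held equal between HS and CS plants, so soil water and leaf temperature cannot be told apart in this comparison. The labels describe leaf 3, fully expanded, and the study's methods a flag leaf at booting, and these arrays do not settle which was sampled.

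Leaves lose heat by transpiration. When soil dries, abscisic acid (ABA) closes the stomata, water is held back and the leaf warms. Heat shock proteins keep unfolding proteins soluble and pull aggregates apart, while dehydrins and other late embryogenesis abundant (LEA) proteins, proline and sugars protect cells that lose water. Heat and drought met together are common for wheat in Mediterranean fields near flowering.

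Values are MAS5 signals from the Affymetrix Wheat Genome Array, in arbitrary linear units, scaled by array to the same trimmed mean. A probe set stands for a transcript or a group of similar transcripts, and wheat copies of a gene from different subgenomes can share one. Of 61179 probe sets that are not array controls, 28072 passed the filter on low signals (in at least 1 of the 8 groups, each of the 3 arrays had it above that array's 60th percentile). Differences are CS minus HS on the log2 scale, tested with limma across all 24 arrays. A probe set was called when its Benjamini-Hochberg adjusted p was under 0.01 and its change at least 2-fold. The p-values rest on the spread between arrays within the 8 groups, part of which may be technical.

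Between CS and HS, 5572 of the 28072 probe sets were called (19.8%), with 1890 higher in CS (6.73%) and 3682 lower (13.1%). The median change over all probe sets was -0.20. The CS and HS arrays of a probe set did not overlap for 16811 probe sets (59.9%). Correlations of log2 signal were 0.954 to 0.962 within HS, 0.955 to 0.957 within CS and 0.858 to 0.886 between the groups. Falls outnumbered rises, but among probe sets measured on all 6 arrays the large changes were more often rises. At 4-fold or more there were 310 rises and 238 falls, at 8-fold or more 79 and 27, and at 16-fold or more 21 and 10. The split between rises and falls depended on scaling. With arrays centred on their medians the calls were 2439 up and 2696 down, and with quantile normalization 2204 up and 2725 down. Poly-A spike-ins, RNAs added to the sample before labelling, were brighter by 1.83 (log2) in CS (12.92 ± 0.0886, SD, n = 3) than in HS (11.09 ± 0.0329, SD, n = 3). Scaled to those spike-ins, the median change was -2.04, with 169 probe sets up and 22522 down, so each direction below is relative to the total signal of an array, and the count under spike-in scaling is given beside each family.

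Names and codes (such as At2g21820) are those of the best Arabidopsis match and were held for 2544 of the probe sets tested. They come from lists that the study drew up on these same arrays, so named probe sets were called more often than the whole array: 676 up (26.6%) and 305 down (12.0%). A list of clusters supplied 1319 probe sets found nowhere else, of which 537 were up (40.7%) and 0 down. Among named probe sets not from that cluster list alone, 254 of 1478 were up (17.2%) and 305 down (20.6%). Counts of gene families are to be read against these shares, and none of the families is independent evidence of its own direction.

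Chaperones rose together, relative to the total signal of an array. Of 24 probe sets for small heat shock proteins, which hold unfolding proteins in a soluble state, 20 rose and 0 fell, with a median change of 2.87. The endoplasmic reticulum protein HSP22.0-ER (At4g10250) had signals of 759, 1630 and 1150 on the HS arrays and 42800, 37300 and 44200 on the CS arrays. The groups were far apart, and the change was 5.20 (SE 0.875, limma adjusted p = 9.9e-05). The mitochondrial HSP23.6-M (At4g25200) went from 149, 171 and 181 to 3840, 5430 and 3270, a change of 4.62 (SE 0.624, limma adjusted p = 1.1e-05). The cytosolic HSP18.1-CI (At5g59720) was at 701, 1980 and 1040 in HS and at 20500, 19000 and 20300 in CS. No HS array of these 3 probe sets came near a CS array. Of the 5 HSP18.1-CI probe sets only 2 were called up, and their changes ranged from 0.67 to 4.14 over all 5. The smallest change in the family was 0.36, for a plastid HSP25.3-P probe set (At4g27670) that was already at 46300, 59100 and 44300 in HS and did not pass the test (limma adjusted p = 0.65).

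HSP100 proteins, which dissolve aggregates, rose for 7 of 9 probe sets (median 2.92). The HSP100 matched to At5g15450 read 2980, 3520 and 1850 in HS and 18000, 18500 and 25200 in CS (2.92, SE 0.324, limma adjusted p = 1.3e-06). HSP101 (At1g74310), needed for thermotolerance in Arabidopsis, read 717, 4980 and 4570 in HS and 31800, 32200 and 34200 in CS. HS replicate 1 was far below the other HS arrays, and the change of 3.69 (SE 0.996, limma adjusted p = 0.0053) became 2.78 and lost its call without it. Of the 5 HSP101 probe sets 3 were called up. The others called changed by 3.25 and 3.29 (limma adjusted p = 6.6e-06 and 8.1e-06). HS replicate 1 was the lowest HS array for these as well. Without HS replicate 1, 5 of the 9 HSP100 probe sets were called up. The remaining HSP101 probe sets lay below the 60th percentile in both groups and were not called (limma adjusted p = 0.013 and 0.15). The first of them read 84.2, 67.9 and 94.7 in HS and 73.1, 9.47 and 14.5 in CS. With array weights by group, with a filter at the 75th percentile or without CS replicate 1, 1 HSP100 probe set was called down.

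The ATP-driven chaperones HSP70 and HSP90 with their DnaJ partners rose for 24 of 35 probe sets and fell for 1 (median 1.81). HSP81-1 (At5g52640), a cytosolic HSP90, had 1140, 2670 and 2240 units in HS and 39900, 37400 and 41800 in CS, a change of 4.38 (SE 0.534, limma adjusted p = 3.5e-06). An HSP70 family member (At2g32120) changed by 4.05 and a DnaJ protein (At2g20560) by 2.86. The exception was the DnaJ-domain protein At5g49580, at 776, 883 and 912 in HS against 358, 399 and 313 in CS (-1.27, SE 0.147, limma adjusted p = 2e-06). Chaperonins, the ring-shaped folding machines of plastids, mitochondria and cytosol, rose for 7 of 27 (median 0.62), a share close to that of all named probe sets, led by the mitochondrial CPN60 (At3g23990) at 2.10. Heat shock factors, which switch these genes on, rose for 3 of 4. The factor matched to At3g22830 went from a mean of 1490 ± 208 to 8820 ± 965 (SD, n = 3) (2.57, SE 0.348, limma adjusted p = 1.1e-05).

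HS replicate 1 was the lowest HS array for 51 of the 68 probe sets of small heat shock proteins, HSP100, HSP70, HSP90 and DnaJ proteins (75%), against 9151 of all 28072 (32.6%). The summed signal of the 68 was 216315, 369482 and 300261 in HS and 1342840, 1197135 and 1338609 in CS, so the groups stayed apart with or without that array. Without it the small heat shock proteins called up numbered 14 of 24. Under spike-in scaling 6 of the small heat shock proteins were up and 0 down, while 2 HSP100 probe sets were up and 2 down. The same scaling left 4 of the HSP70, HSP90 and DnaJ list up and 6 down, 0 chaperonins up and 17 down, and 0 heat shock factors called.

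**Figure D1:**
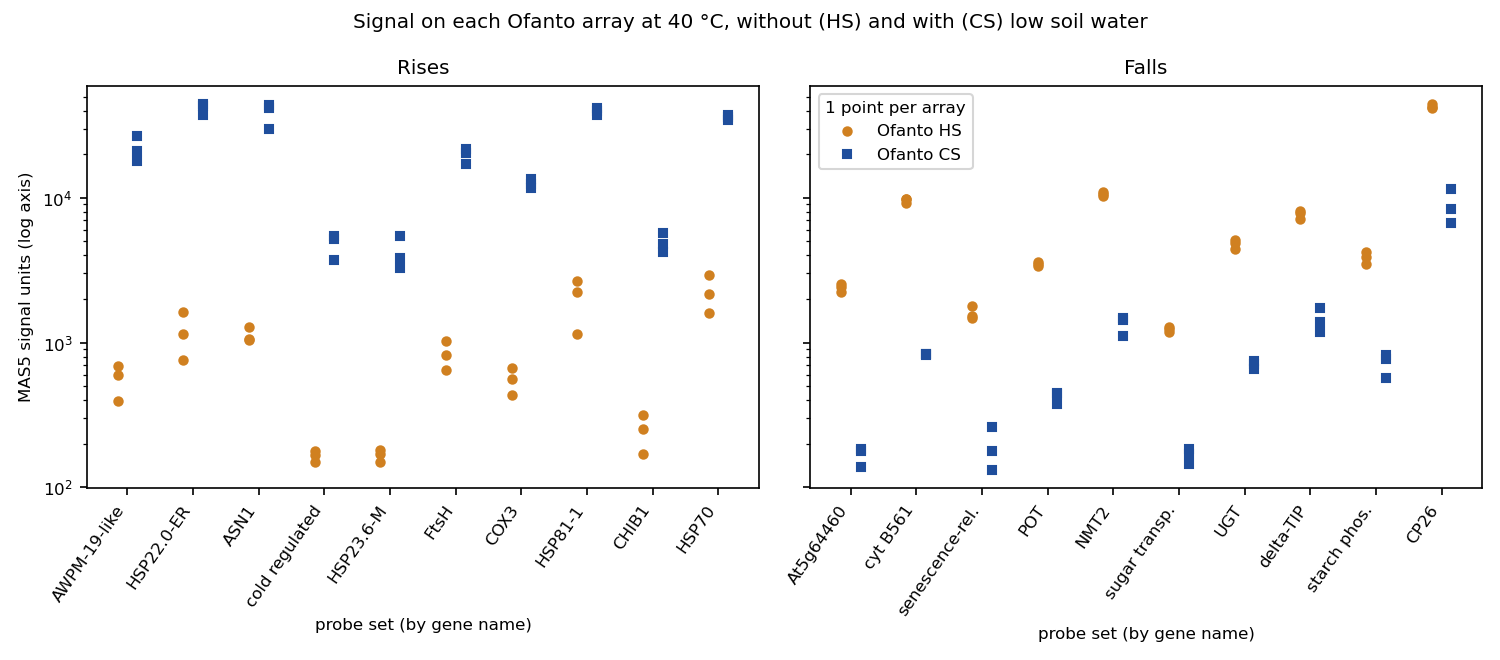
MAS5 signal (log axis) of 10 probe sets that rose and 10 that fell, 1 point for each Ofanto HS array (circles) and CS array (squares). These are among the largest changes of named probe sets measured on all 6 arrays. In all 20 the 3 HS points and the 3 CS points do not overlap, which was a condition for choosing the largest changes. HSP81-1 rises from at most 2670 to at least 37400 while this cytochrome B561 probe set falls from at least 9200 to at most 834.

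Among named probe sets measured on all 6 arrays, the rises outside the chaperones were led by a membrane protein of the AWPM-19 family (At1g04560), a plasma membrane protein first described from wheat cells treated with ABA. It read 393, 686 and 592 in HS and 20900, 17800 and 26500 in CS, a change of 5.30 (SE 0.836, limma adjusted p = 5.2e-05). It was dim in the other groups compared: mean signals were 30.5 for Ctrl and 25.7 for DS, with 14.9 and 36.7 for the HS and CS plants of Cappelli. Asparagine synthetase ASN1 (At3g47340), which stores nitrogen as asparagine and is known to be induced by carbon shortage in Arabidopsis, went from 1060, 1040 and 1290 to 43800, 29700 and 41700 (5.07, SE 0.412, limma adjusted p = 3.3e-08). The acidic chitinase CHIB1 (At5g24090) rose by 4.35 and a putative FtsH protease (At5g15250) by 4.59. Cytochrome c oxidase subunit 3 (At2g07687), a mitochondrially encoded part of the respiratory chain, read 433 to 663 in HS and 12400, 11700 and 13400 in CS (4.52, SE 0.255, limma adjusted p = 6.2e-10).

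Some transcripts passed from below to above the middle of the array. A total of 777 probe sets lay above the 60th percentile on all CS arrays and below it on all HS arrays, and 324 of them were called up. For these the lower bound of the fold was taken against the 60th percentile of each HS array. The protein of unknown function matched to At2g21820 was at 79.5, 71.8 and 24.2 in HS and at 12300, 11400 and 13000 in CS, at least 93.2-fold higher. A sugar-transport protein of the MtN3 family (At5g13170) was at least 26.2-fold higher, a mitochondrial import translocase subunit (At4g16160) at least 23.9-fold and an amidase (At1g08980) at least 22.3-fold. In the other direction 794 probe sets were above the percentile only in HS, of which 599 were called down. An ankyrin repeat protein (At4g03500) read 1030 to 1330 in HS and 85.2, 105 and 109 in CS, at least 10.2-fold lower. The pyrophosphate-dependent phosphofructokinase of glycolysis (At1g76550) was at least 7.25-fold lower and phosphoenolpyruvate carboxykinase (At4g37870), an enzyme of gluconeogenesis, at least 4.12-fold lower.

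Proteins that protect dehydrating cells rose as a group. Of 24 dehydrin, LEA, HVA22 and RCI2 probe sets, 15 rose and 0 fell (median 1.45), and under spike-in scaling 4 were up and 3 down. Among those not from the cluster list alone 8 of 15 rose. The dehydrin matched to RAB18 (At5g66400) was at 30.0, 38.1 and 26.2 in HS, below the 60th percentile of each array, and at 726, 427 and 660 in CS, at least 4.51-fold higher. A LEA protein (At3g15670) went from 81.9, 115 and 79.3 to 1840, 1270 and 2840, at least 14.4-fold higher. A brighter probe set with the same match read 14300, 16900 and 16000 in HS and 27400, 22500 and 29800 in CS. It was not called (0.75, limma adjusted p = 0.042). The dehydrin LTI30 (At3g50970) read 448, 512 and 399 in HS and 1820, 1870 and 2350 in CS (2.15, SE 0.196, limma adjusted p = 1.3e-07). The cold-regulated protein matched to At5g01300, a phosphatidylethanolamine-binding family member, went from 150, 178 and 168 to 5180, 3720 and 5480 (4.84, SE 0.572, limma adjusted p = 2.5e-06). For all of these the lowest CS array lay above the highest HS array, which was a condition for choosing the largest changes. P5CS (At3g55610), the rate-limiting enzyme of proline synthesis, rose from 6550, 7410 and 6820 to 34600, 26600 and 36800 (2.23, SE 0.243, limma adjusted p = 1e-06), and P5CR (At5g14800), the next enzyme, changed by 0.90, under the 2-fold limit.

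Parts of ABA signalling moved unevenly. Protein phosphatases 2C, a family that includes the brakes on ABA signalling, rose for 6 of 11 (median 1.09), although under spike-in scaling 0 were up and 5 down. The match to the phosphatase P2C-HA (At1g72770) read 1230, 1480 and 1410 in HS and 3090, 2420 and 3340 in CS (1.09, SE 0.221, limma adjusted p = 0.00055), and without CS replicate 3 its change of 1.00 was no longer called. A different member (At2g25620) rose by 2.63. The 6 probe sets for OST1, the kinase that closes stomata, had a median change of 0.48, and 0 of them were called, against 0 up and 5 down under spike-in scaling. The calcium-binding protein RD20 (At2g33380), an ABA-responsive protein in Arabidopsis, had mean signals of 212 in HS and 1450 in CS, a change of 2.81 (limma adjusted p = 2.3e-05). Diacylglycerol kinase (At2g20900), which makes the lipid messenger phosphatidic acid, rose by 2.39. Universal stress proteins, small proteins of unsettled role, rose for 11 of 15 (median 1.71), and under spike-in scaling 0 were up and 3 down.

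Enzymes that break down or build carbon and nitrogen stores moved in part. In the starch breakdown list 4 of 8 probe sets rose and 2 fell. A beta-amylase (At3g23920), which releases maltose from starch, went from 1100, 1460 and 1460 to 11100, 9750 and 11000 (3.00, SE 0.406, limma adjusted p = 1.1e-05), and the chloroplast beta-amylase CT-BMY (At4g17090) rose by 2.09. Starch phosphorylase (At3g46970) fell instead, from 3470, 3880 and 4220 to 817, 773 and 566 (-2.44, SE 0.329, limma adjusted p = 1.1e-05). Of 12 sucrose and trehalose enzymes 6 rose and 1 fell, among them a sucrose synthase (At4g02280) and a trehalose-6-phosphate synthase (At1g70290), each at 1.84. Enzymes that degrade leucine, isoleucine and valine rose for 8 of 19 (median 0.97), such as methylcrotonyl-CoA carboxylase (At1g03090) at 1.79. Of the 19, 17 came from the cluster list alone, and 7 of those 17 rose, a share near the 40.7% up of that whole list. Beta-oxidation and the glyoxylate cycle, which turn fatty acids into sugars, held 1 riser and 1 faller among 20. The riser was a peroxisomal multifunctional protein (At4g29010, 1.28) and the faller the peroxisomal fatty acid importer PXA1 (At4g39850, -1.54). The papain-like protease XBCP3 (At1g09850) rose by 3.37, from 1240, 1600 and 1300 to 16000, 8730 and 20700. Under spike-in scaling the starch list had 0 up and 3 down, the sucrose and trehalose list 1 up and 4 down, the branched-chain amino acid list 0 up and 7 down, and the beta-oxidation and glyoxylate list 0 up and 12 down.

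**Figure D2:**
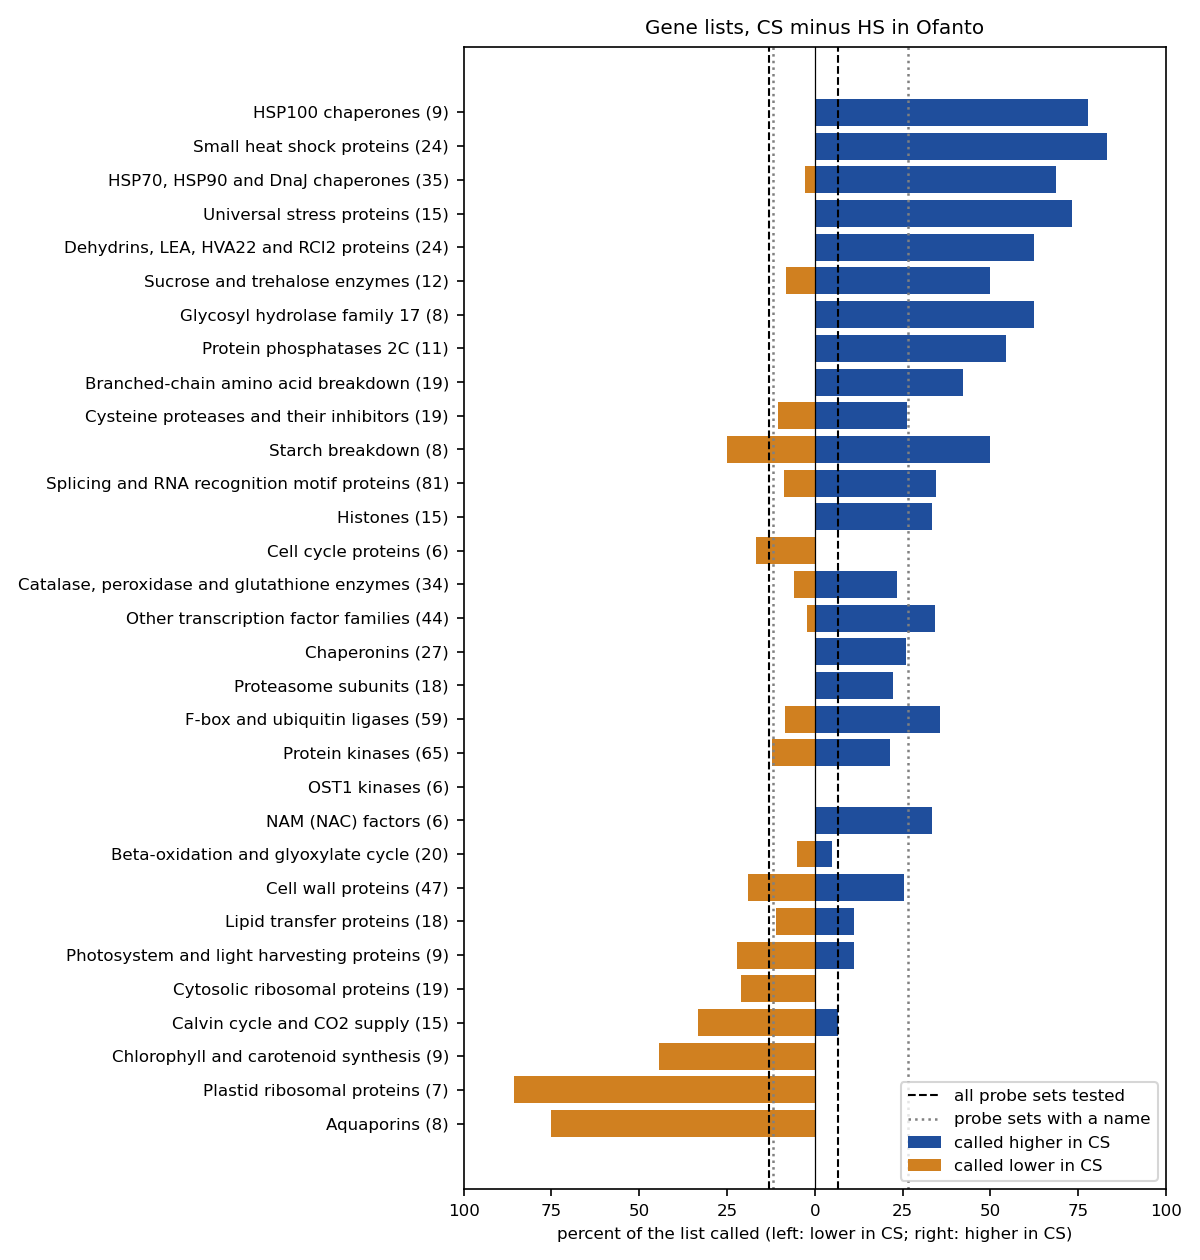
Percent of each gene list (at least 6 probe sets, number in brackets, ordered by median change) called higher in CS (right) or lower in CS (left), with dashed lines for all probe sets tested (6.73% up, 13.1% down) and dotted lines for probe sets with a name (26.6% up, 12.0% down). Small heat shock proteins reach 83.3% up and plastid ribosomal proteins 85.7% down; under spike-in scaling rises shrink or turn and falls grow.

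Most probe sets for plastid ribosomal proteins were lower in CS. The 7 probe sets for plastid ribosomal proteins stand for 5 proteins, and 6 of the 7 fell (median -1.17), with 7 down under spike-in scaling and 4 down on median-centred arrays. The 30S protein S17 (At1g79850) read 7560, 7170 and 7190 in HS and 3000, 2390 and 2010 in CS (-1.59, SE 0.236, limma adjusted p = 3e-05). The 50S protein L9 (At3g44890) changed by -1.46. Cytosolic ribosomal proteins fell for 4 of 19 (21.1%, median -0.62), near the 20.6% of named probe sets not from the cluster list alone. Of these 4, 2 were probe sets for L36a/L44 (At4g14320), the lowest at -1.60. Under spike-in scaling the list had 0 up and 14 down.

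Among 9 photosystem and light harvesting probe sets 2 fell (22.2%), both for the antenna protein CP26, and 1 rose, a share of falls near the 20.6% of named probe sets not from the cluster list alone. CP26 (At4g10340) was at 42400, 41800 and 44200 in HS and at 8420, 11400 and 6730 in CS, a change of -2.31 (SE 0.381, limma adjusted p = 8.3e-05). The riser was an early light-induced protein (At3g22840), a pigment-binding protein made under light stress, at 6.38, 39.3 and 98.6 in HS and 476, 646 and 567 in CS (limma adjusted p = 0.00045), below the 60th percentile on all HS arrays. In the list of Calvin cycle and CO2 supply proteins 5 of 15 fell and 1 rose. Fructose-1,6-bisphosphatase (At1g43670), matched to the cytosolic form and not to that of the Calvin cycle, went from 16600, 15600 and 17500 to 4830, 5550 and 3900 (-1.81, SE 0.224, limma adjusted p = 4.1e-06). Sedoheptulose-1,7-bisphosphatase (At3g55800) fell by 1.50. Of the carbonic anhydrase family, which interconverts CO2 and bicarbonate, the member matched to At5g56330 changed by -2.15 and that matched to At4g33580 by 1.60.

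Pigment synthesis fell for 4 of 9 probe sets and rose for 0. Phytoene synthase (At5g17230), the entry enzyme of carotenoids, went from 654, 715 and 833 to 115, 238 and 147 (-2.20, SE 0.298, limma adjusted p = 1.1e-05). GLK1 (At2g20570), a factor that drives chloroplast development, changed by -1.26. Under spike-in scaling 7 of the photosystem list, 14 of the Calvin list and all 9 pigment probe sets were down. Some lists served as stand-ins for cell types, and how specific they are to a cell type was not tested. The summed signal of the 24 photosystem and Calvin probe sets (mesophyll) was 450165 to 472331 in HS and 283581 to 319185 in CS. For the 20 aquaporin, sucrose and trehalose probe sets (vascular) it was 114359 to 131767 and 115149 to 119499, with 6 up and 7 down. For 18 lipid transfer proteins (epidermis) it was 267926 to 319961 and 278618 to 321001, and for 6 OST1 probe sets (guard cells) 17665 to 18194 and 24798 to 26614. In whole leaves fewer cells of a type and less RNA in each cell cannot be told apart, and the part of cell composition in these falls was not tested.

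Water channels fell as well. Of 8 aquaporin probe sets 6 fell and 0 rose (median -1.75; 7 down under spike-in scaling), and 5 of the 6 belong to delta-TIP, a channel of the vacuolar membrane, so they do not stand for 6 genes. Delta-TIP (At3g16240) read 8060, 7840 and 7120 in HS and 1190, 1730 and 1380 in CS (-2.44, SE 0.292, limma adjusted p = 2.9e-06). The major intrinsic protein matched to At4g23400, an aquaporin of the plasma membrane, was at 43700, 50500 and 46000 in HS and 57700, 55400 and 53300 in CS and did not pass the test (0.25, limma adjusted p = 0.044).

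The largest falls among named probe sets measured on all 6 arrays were in other classes. The protein of unknown function At5g64460 dropped from 2410, 2250 and 2530 to 185, 179 and 138 (-3.85, SE 0.194, limma adjusted p = 3e-10). A cytochrome B561 protein (At4g25570), of a family that moves electrons from ascorbate across membranes, lay between 9200 and 9870 on the HS arrays and at 818, 834 and 830 on the CS arrays (-3.54, SE 0.347, limma adjusted p = 2.9e-07). Other called probe sets with that match changed by -3.12 and by 1.17, the latter a rise. Phosphoethanolamine N-methyltransferase NMT2 (At1g48600), which makes the head group of phosphatidylcholine, went from 10300, 10600 and 11000 to 1480, 1430 and 1110 (limma adjusted p = 1.2e-08). For At5g64460, NMT2 and the cytochrome B561 probe set with signals given, every HS array was above every CS array by more than the spread within either group. That the groups did not overlap was a condition for choosing the largest changes. An oligopeptide transporter (At5g01180) changed by -3.04, a senescence-associated protein (At5g47060) by -3.12, a sugar transporter (At4g00370) by -2.90 and a glucosyltransferase (At1g22370) by -2.77. All of these largest falls stayed down under spike-in scaling. That scaling lowered every change by 1.83, so it could not have turned a fall into a rise. The list of lipoxygenase and allene oxide synthase, enzymes on the way to jasmonate, held 1 riser and 1 faller among 4, with 1 up and 3 down under spike-in scaling. A lipoxygenase (At1g17420) changed by -2.11, while allene oxide synthase (At5g42650) read 2.32, 41.8 and 3.13 in HS and 468, 105 and 570 in CS and was called up, a call lost with limma on only the arrays of the groups compared. Probe sets without a name moved as far, and of the 4 looked at, the falls were -6.40 and -5.87 and the rises 6.13 and 4.96.

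Cell wall and chromatin genes were mixed. Of 47 cell wall probe sets 12 rose and 9 fell, from a leucine-rich repeat extensin (At4g13340, 3.11) to a xyloglucan transferase (At2g18800, -2.04), and under spike-in scaling 2 were up and 28 down. Histones, the proteins that package DNA, rose for 5 of 15 and fell for 0, with 2 up and 7 down under spike-in scaling. Histone H3 (At5g10400) read 251, 381 and 273 in HS and 3860, 4110 and 3790 in CS (3.72, SE 0.193, limma adjusted p = 3.1e-10). Linker histone H1.2 (At2g30620) rose by 1.93 and a histone acetyltransferase (At5g64610) by 1.67. Of 8 histone H4 probe sets 1 rose (At5g59970, 2.40) and the lowest changed by -0.98, so copies of the same histone did not move together. Cyclins and other cell cycle proteins had 0 risers and 1 faller among 6, with 0 up and 3 down under spike-in scaling. Splicing and RNA recognition motif proteins, which process messenger RNA, rose for 28 of 81 and fell for 7, against 1 up and 41 down under spike-in scaling. SR45, a splicing regulator, had a probe set at 2.26 and a different probe set at -1.81. Of 3 response regulators of cytokinin signalling 2 fell, both matched to feedback brakes of that pathway in Arabidopsis, and 3 were down under spike-in scaling. ARR6 (At5g62920) went from 399, 240 and 253 to 36.9, 26.9 and 33.7, at least 2.56-fold lower, and the regulator At2g41310 changed by -2.79.

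The same step in soil water at 19 °C (DS minus Ctrl, which shares no array with CS minus HS) gave fewer calls. In the study, relative leaf water content of Ofanto fell more from HS to CS than from Ctrl to DS. Its methods also give different times to sampling for drought and for heat. Temperature, leaf water loss and time under stress therefore cannot be told apart below. DS minus Ctrl changed 1067 of 28072 probe sets (3.8%), 750 up (2.67%) and 317 down (1.13%). The descriptions of Ctrl replicates 2 and 3 hold text on the drought regime although their titles say control, and with Ctrl replicate 1 as the only control the calls were 746 up and 75 down. Probe sets up in both comparisons numbered 131, which is 6.93% of the rises at 40 °C and 17.5% of those at 19 °C, and 66 were down in both, 1.79% and 20.8%. A further 50 were up at 40 °C and down at 19 °C, and 89 the reverse. The test of the difference between the 2 changes called 5142 probe sets (18.3%), 1625 more positive at 40 °C (5.79%) and 3517 more negative (12.5%). Of the 1890 risers 1096 (58.0%) rose more than at 19 °C by that test, and of the 3682 fallers 2281 (62.0%) fell more. Both sets were picked by the change at 40 °C that the test reuses, so these shares are in part built in.

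The study named 20 probe sets as drought genes from these arrays, so their rise at 19 °C was part of their choice: 17 were up at 19 °C (median 1.63) and 7 at 40 °C (median 0.75), with 0 down. LTI30 rose at both, by 2.68 at 19 °C and 2.15 at 40 °C, and the difference of -0.53 did not pass the test (limma adjusted p = 0.15). P5CS rose by 1.95 and 2.23, LEA14 (At1g01470) by 1.60 and 1.44, and the bZIP factor GBF3 (At2g46270) by 1.43 and 1.38. The factor MYB4 (At4g38620) rose at both but less at 40 °C, by 2.25 against 4.01 (difference -1.76, limma adjusted p = 2.8e-05). Its mean signal was 703 for Ctrl, 11300 for DS, 2650 for HS and 12600 for CS, so that DS and CS ended close together from different starts. The RAB18-like dehydrin was called up at both, with a mean signal of 26.6 for Ctrl and signals of 332, 309 and 294 for DS.

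Other drought genes were not called at 40 °C. RD22 (At5g25610), a dehydration-responsive protein, rose by 1.89 at 19 °C and changed by -0.57 at 40 °C (difference -2.47, limma adjusted p = 0.00023). Its mean signal was 704 for Ctrl, 2610 for DS, 2740 for HS and 1850 for CS, so that heat alone stood as high as drought alone. The kinase CIPK3 (At2g26980) showed the same order, with means of 187, 609, 959 and 874 and changes of 1.73 at 19 °C and -0.13 at 40 °C (difference -1.86, limma adjusted p = 0.00039). The cysteine protease RD19A (At4g39090) changed by 1.30 and 0.19 (difference -1.11, limma adjusted p = 0.0058). The HSP70 matched to At3g09440 rose by 1.56 at 19 °C and stood at -0.86 at 40 °C (difference -2.42, limma adjusted p = 8.2e-05), unlike most chaperones. A lipid transfer family protein (At3g18280) rose at both, by 2.83 and 3.24, whereas LTP3 (At5g59320) changed by 2.17 and 0.19 and passed the test at neither.

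Most chaperones called at 40 °C were not called at 19 °C. The small heat shock proteins had 0 of 24 called at 19 °C (median 0.01), and for 12 of them the difference between temperatures passed the test. The HSP70, HSP90 and DnaJ list had 2 called up at 19 °C. HSP81-1 changed by -0.79 at 19 °C and 4.38 at 40 °C (difference 5.17, limma adjusted p = 5e-05). ASN1 changed by -0.10 and 5.07 (difference 5.17, limma adjusted p = 4.4e-06), and histone H3 by -0.41 and 3.72 (difference 4.13, limma adjusted p = 2.7e-08). Cytochrome B561, NMT2 and At5g64460 changed by -0.19, 0.64 and 0.02 at 19 °C. The aquaporins, with 3 of 8 up at 19 °C and 6 of 8 down at 40 °C, had 5 whose difference passed the test. ARR6 fell at both temperatures, by 2.24 at 19 °C.

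**Figure D3:**
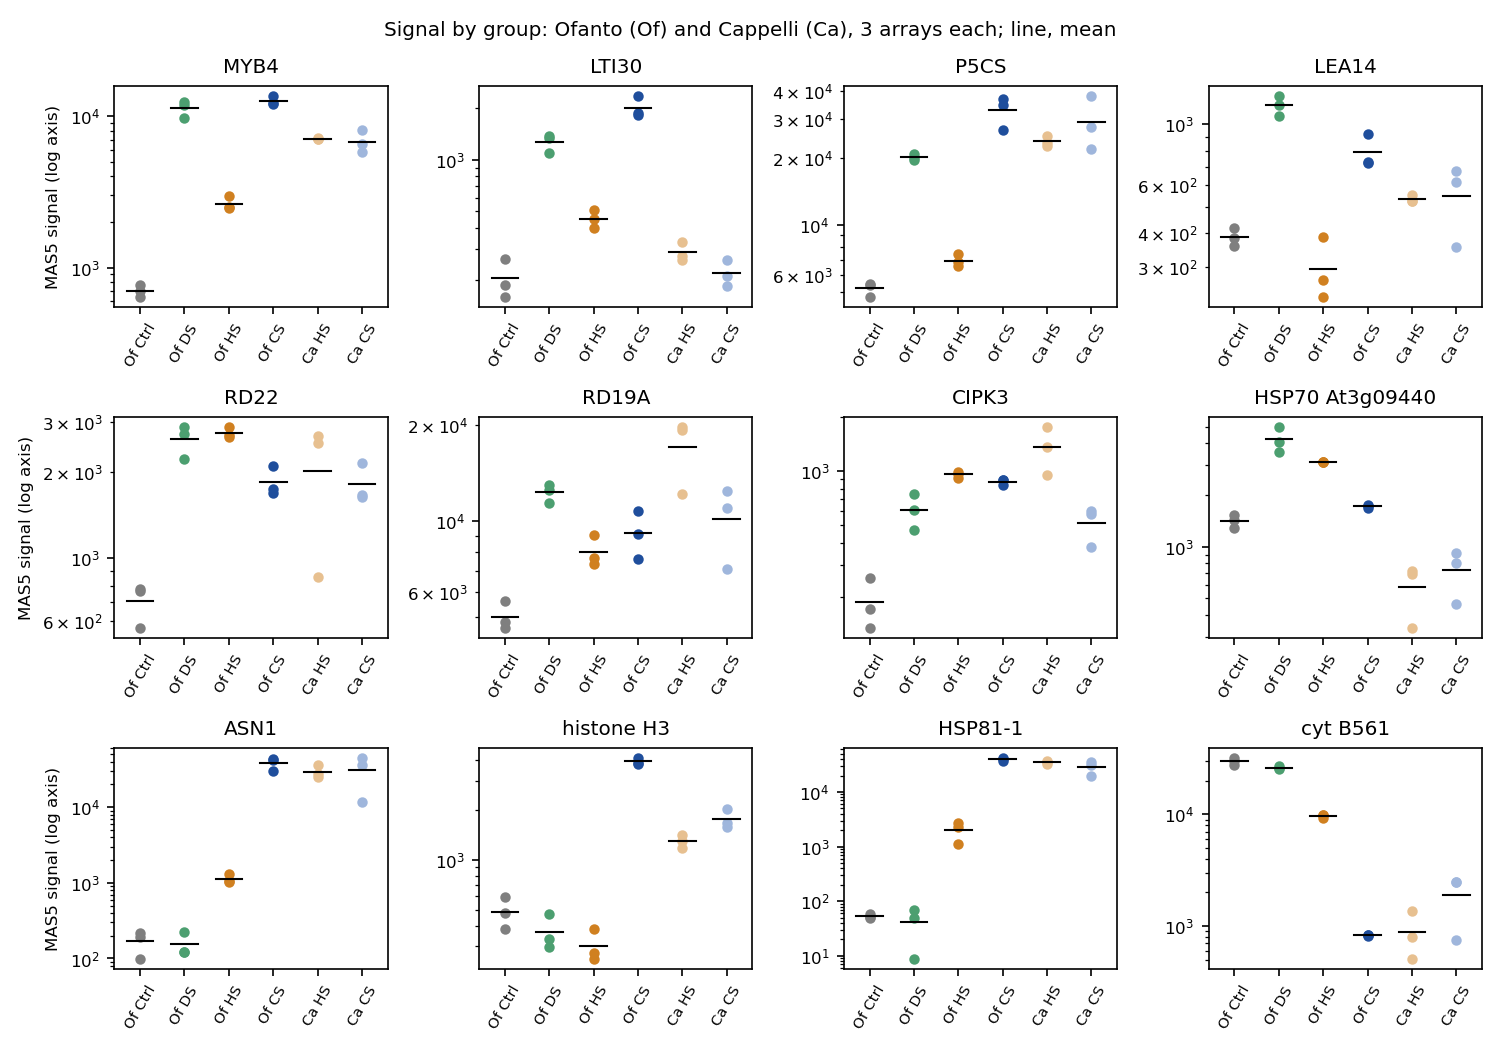
MAS5 signal (log axis) of 12 probe sets on each of 3 arrays (points) with the group mean (line) for Ofanto (Of) Ctrl, DS, HS and CS and Cappelli (Ca) HS and CS. MYB4, LTI30, P5CS and LEA14 are higher with low soil water at both temperatures in Ofanto; RD22, RD19A and CIPK3 are higher in DS than in Ctrl but change by less than 2-fold from HS to CS; HSP81-1 and ASN1 in Cappelli HS are already near the Ofanto CS level.

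In Cappelli the same contrast, CS minus HS, called 258 probe sets (0.919%), 146 up (0.52%) and 112 down (0.399%). The test of the difference between cultivars called 5919 (21.1%), with 2180 more positive in Ofanto (7.77%) and 3739 more negative (13.3%). Of the Ofanto risers 1464 (77.5%) and of the fallers 2734 (74.3%) exceeded the Cappelli change by that test. Risers and fallers were picked by the Ofanto change that this test reuses, so a large share is in part built in. Calls in opposite directions outnumbered shared ones: 70 probe sets down in Ofanto were up in Cappelli, 47.9% of the Cappelli rises and 1.9% of the Ofanto falls, against 2 up in both and 5 down in both. The spread within groups was wider in Cappelli, with a median SD of 0.272 in HS and 0.322 in CS against 0.179 and 0.225 in Ofanto.

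HSP81-1 had mean signals of 53.7 in Ofanto Ctrl, 2020 in Ofanto HS and 39700 in Ofanto CS, whereas Cappelli was at 34800 under HS and at 28700 under CS. ASN1 in Cappelli stood at 29400 under HS and 30900 under CS, close to the 38400 of Ofanto CS and far above the 1130 of Ofanto HS. HSP22.0-ER was at 36800 and 22300 in the Cappelli groups. Among the genes that fell in Ofanto, cytochrome B561 was at 9630 in Ofanto HS, 828 in Ofanto CS, and 884 and 1920 in the HS and CS plants of Cappelli, and CP26 at 42800, 8860, 5520 and 18100. CP26 changed by 1.71 in Cappelli, with a difference between cultivars of -4.02 (limma adjusted p = 1.8e-05). NMT2 changed by 1.83 in Cappelli, called up, and its difference of -4.82 passed the test (limma adjusted p = 1.2e-08). The AWPM-19 protein and HSP23.6-M (211 and 174 in the Cappelli groups) were exceptions, low in both Cappelli groups as well as in Ofanto HS.

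**Figure D4:**
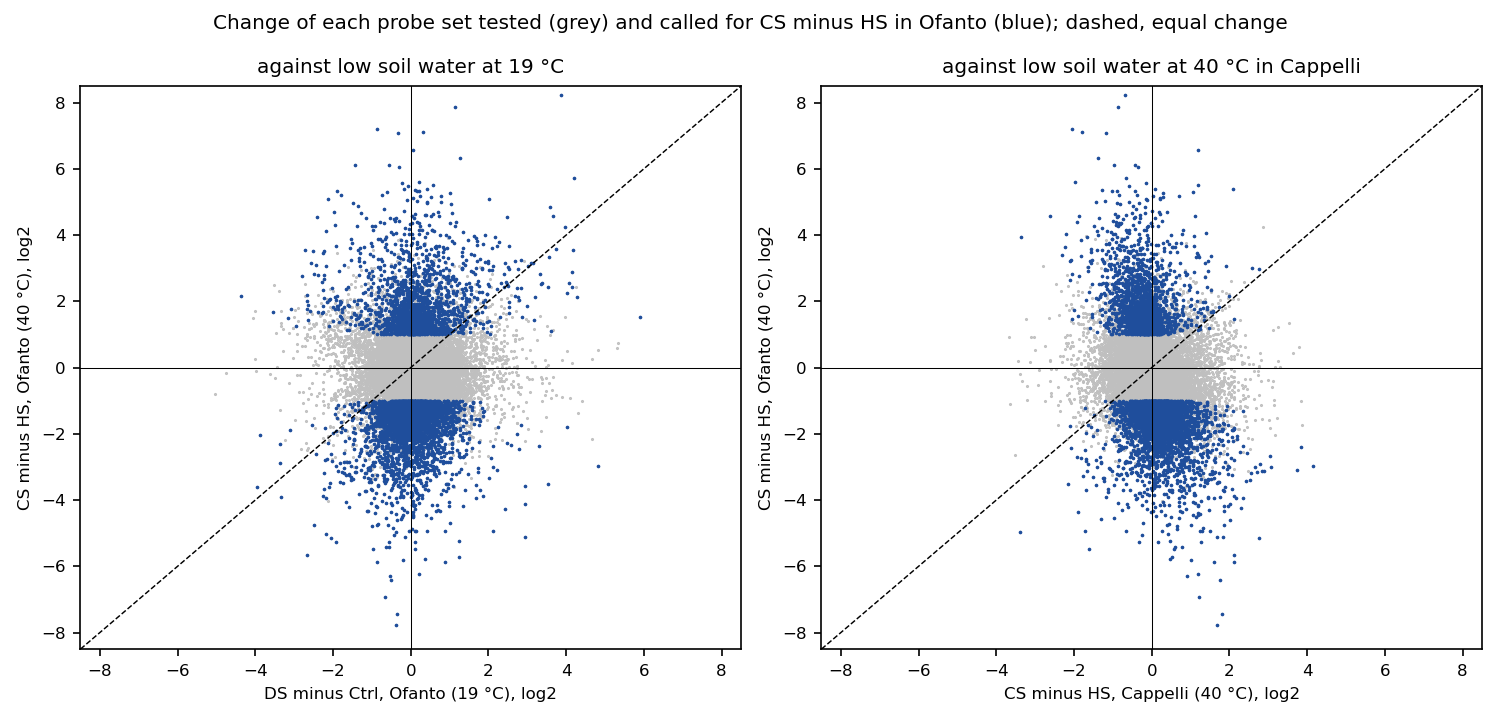
Change of each of 28072 probe sets for CS minus HS in Ofanto (vertical, log2), against DS minus Ctrl in Ofanto (left, horizontal, log2) and CS minus HS in Cappelli (right, horizontal, log2), with probe sets called for the Ofanto contrast in blue and equal change dashed. Blue points spread far along the vertical axis and little along the horizontal, which follows in part from their choice by the vertical value. The median change of the 1890 risers was 0.09 at 19 °C and -0.26 in Cappelli, and that of the 3682 fallers -0.04 and 0.20.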

How the data were processed

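Leaf RNA of 2 cultivars under 4 regimes was hybridised to 24 arrays. The authors deposited MAS5 signal intensity, linear and scaled per array (the trimmed mean, with 2% left out at each end, was the same on all arrays), while the study's methods describe RMA values for expression, which were not used here. Probe sets were kept where all 3 arrays of at least 1 of 8 groups exceeded the 60th percentile of their array. Log2 signals of all 24 arrays were fitted as 8 group means with limma 3.58.1 in R 4.3.3, checked on simulated data, and p-values were adjusted by Benjamini-Hochberg. The lower bound of a fold set each dim array at the higher of its 60th percentile and its own signal. The number of arrays and the spread between them limit the precision, and dim signals are less certain. Members and lists were chosen with earlier results of these data known. Named probe sets were of several kinds. The first were the largest changes on all 6 arrays, among called probe sets whose CS and HS arrays did not overlap. Others were the largest bounds, or up to 3 called members in each direction of a list (all of a list under 8). Those the study names for drought, signalling, beta-oxidation, the glyoxylate cycle or qRT-PCR were added. So were the 5 largest of each difference test in each direction, and 2 without a name in each direction. Names came from part of the study's lists, read as text. Fold changes and p-values of the authors' own comparisons were not used. Alternatives changed the scaling, filter, offset, arrays in the fit, replicate block and test.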

Additional observations from a re-analysis of the deposited data

Results flagged for a closer look

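The response to low soil water at 40 °C differed from that at 19 °C in Ofanto for 5142 probe sets by the test of the difference. The most negative differences (log2, 40 °C minus 19 °C) among named probe sets were At5g64460 at -3.87, NMT2 (At1g48600) at -3.64, cytochrome B561 (At4g25570) at -3.35, a xyloglucan transferase (At2g18800) at -3.08 and delta-TIP (At3g16240) at -3.03. The most positive were histone H3 (At5g10400) at 4.13, a heat shock protein (At5g56010) at 3.86, a glycosyl hydrolase family 3 protein (At5g20950) at 3.48, the protease XBCP3 (At1g09850) at 3.41 and the protein of unknown function At1g28135 at 3.36. The heat shock protein At5g56010 changed in opposite directions, by -1.10 at 19 °C and 2.76 at 40 °C, both called.

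Among drought genes the study names, the same test gave negative differences for both RD22 probe sets (At5g25610, -2.58 and -2.47), the HSP70 At3g09440 (-2.42), CIPK3 (At2g26980, -1.86), HSP101 (At1g74310, -1.83), MYB4 (At4g38620, -1.76) and RD19A (At4g39090, -1.11). They were chosen by the study for their response to drought at 19 °C on these arrays, which bears on the sign of each difference. That HSP101 probe set lay below the 60th percentile in both HS and CS and was not called at 19 °C.

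The response at 40 °C differed between Ofanto and Cappelli for 5919 probe sets. The most negative differences (log2, Ofanto minus Cappelli) were NMT2 (At1g48600) at -4.82, cytochrome B561 (At4g25570) at -4.58, CP26 (At4g10340) at -4.02, a senescence-associated protein (At5g47060) at -3.89 and an oligopeptide transporter (At5g01180) at -3.86. The most positive were HSP22.0-ER (At4g10250) at 6.04, the protein of unknown function At3g22850 at 5.88, a putative FtsH protease at 5.46, ASN1 (At3g47340) at 5.19 and CHIB1 (At5g24090) at 5.15.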

How the results depend on the processing

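Calls for CS minus HS numbered 22691 with spike-in scaling, 9650 with no minimum fold and 546 with the methods' t-test after adjustment, which called 42 probe sets of the gene lists. Leaving out single arrays gave 4851 to 5585. DS minus Ctrl gave 325 calls with spike-in scaling (48.3% up, so that falls outnumbered rises), 597 with limma on its own 6 arrays, 2113 with no minimum fold, 6 with the t-test and 804 to 962 without single arrays. The share of its calls that were up went from 70.3% to 81.5% on median-centred arrays and to 90.9% with the single control array, an alternative chosen after seeing the data. The temperature difference gave 16818 calls with spike-in scaling, 3690 with that single control array and 4485 to 5151 without single arrays. The cultivar difference gave 3809 calls with limma on the arrays compared and 5022 to 6935 without single arrays, and its share up rose from 36.8% to 48.5% on median-centred arrays. It could not be fitted on the 12 Ofanto arrays. The cause of these shifts was not tested. Spike-in scaling reversed P2C-HA (-0.74), RD19A (-1.65), methylcrotonyl-CoA carboxylase (-0.04), the kinase KIN10 (-0.67), LEA14 (-0.39), GBF3 (-0.45), a histone acetyltransferase (-0.17), the multifunctional protein AIM1 (-0.55), the plastid HSC70 (-0.56) and the carbonic anhydrase At4g33580 (-0.23). Of 96 named probe sets called, 91 kept their call under 18 alternatives that leave out spike-in scaling and the t-test, and HSP101, allene oxide synthase, the xyloglucan transferase At2g18800, P2C-HA and the universal stress protein At3g03270 lost it in at least 1. Under the t-test 24 of the 96 kept their call, and 0 of 24 small heat shock proteins were called. Under spike-in scaling 28 of 61 risers and 35 of 35 fallers kept theirs. That scaling lowers every change, so it is no check on the direction of the fallers. Same-numbered HS and CS arrays did not deviate together (r -0.00879, -0.0129 and -0.00864), which cannot show that the numbers mark no shared block. The study's methods describe a randomized block design, and no source used here says whether replicate numbers follow its blocks. With the replicate block the calls were 5515 for CS minus HS, 1013 for DS minus Ctrl, 4974 for the temperature difference and 5785 for the cultivar difference. Fitted changes of probe sets below the 60th percentile in a group rest on dim signals.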

Other observations

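Probe sets matched to the stretch of Arabidopsis chromosome 2 that holds a copy of the mitochondrial genome, a group chosen after their values were seen, rose together in CS. Of 9 such probe sets 7 were called up and 0 down, with a median change of 2.58, and all 9 came from the cluster list in which 0 probe sets were called down. Cytochrome c oxidase subunit II (At2g07695) read 3180, 3970 and 3650 in HS and 19900, 19700 and 24900 in CS, a change of 2.58. The ATPase C subunit (At2g07671) went from 11900, 13800 and 11900 to 45000, 43200 and 50000. At 19 °C 1 of the 9 was called, and in Cappelli 0 were.

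Probe sets with the same best Arabidopsis match could move apart. Of 172 Arabidopsis codes with more than 1 called probe set, 11 held both rises and falls. The RNA recognition motif protein At2g44710 had a probe set at 3.49 and a different probe set at -1.85. Cytochrome B561 (At4g25570) had called probe sets at -3.54, -3.12 and 1.17. Which wheat genes these probe sets read was not tested.

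The summed signal of 21 probe sets for dividing-cell markers was 41795 to 47239 in HS and 83318 to 90761 in CS, with 5 called up and 1 down. These were 15 histone and 6 cell cycle probe sets, and the 5 risers were all histones. Linker histone H1.2 (At2g30620) read 6630, 9660 and 8000 in HS and 31700, 29200 and 30700 in CS, and a histone H2A (At4g27230), which was not called, 16700, 17600 and 16600 against 29100, 26500 and 32200.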
